A study of Homo sapiens with 36 samples.

Results

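The genes described here are 49 that a cell uses to copy its DNA and to divide, measured in human stem cells of 3 RAI1 genotypes as they were turned into neurons. They were chosen by name, as all rows of the deposited tables whose gene symbol is on a fixed list, and every symbol was found, giving 49 of the 62710 genes in the tables. The list was drawn up with earlier results of these data known. The list holds 23 genes of DNA replication (S phase) and 26 genes of mitosis. The cells were H9, an established line of human embryonic stem cells, and carried a doxycycline-dependent NGN2 transgene (NGN2 is the protein of NEUROG2, a factor that drives stem cells to become neurons). They were labelled WT, HET (RAI1+/−) or KO (RAI1−/−), RAI1 being a chromatin regulator gene. Cells were collected before induction (day 0, on Geltrex in mTeSR Plus) and on days 3 and 7 of induction in a Neurobasal-A medium with B27, GDNF, NT3 and CultureOne, a supplement sold to limit dividing progenitor cells, which all genotypes received. Each of the 9 groups of genotype and day had 4 libraries, 36 in all, and total RNA was depleted of ribosomal RNA before sequencing. The labels call the libraries biological replicates but do not say whether a genotype stands for 1 clone or several, so p-values measure the spread between these samples.

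Before a cell copies its DNA, CDC6 and CDT1 load the ring of MCM2 to MCM7 proteins at origins, and CDC45 and the GINS complex switch that ring on as the helicase of the replication fork. E2F transcription factors turn on most of these genes together at the step from G1 to S phase. The mitosis genes are transcribed later, in G2, many through promoters that carry a CCAAT box and a sequence called CHR (cell cycle genes homology region), which the MuvB complexes bind both to activate these genes in dividing cells and, as the DREAM complex, to repress them in resting ones. Neurons leave the cell cycle for good, and during neuronal induction both groups of genes are switched off.

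The promoters of these genes show the difference between the 2 groups in sequence, so 5 of them are printed here as the 250 bases before the gene's start, 5′ to 3′ (RefSeq, GRCh38.p14). MCM6 (chr2:135876444-135876693, minus strand) and E2F1 (chr20:33686386-33686635, minus strand) stand for the S-phase genes. CCNB2 (chr15:59104896-59105145, plus strand) and CDC20 (chr1:43358731-43358980, plus strand) are mitosis genes that were among the lowest in KO cells at day 7. HMMR (chr5:163460382-163460631, plus strand) is a mitosis gene that passed no test against WT. Capitals mark letters of the E2F motif (TTTGGCGC or TTTCCCGC), the CCAAT box (CCAAT) and the CHR (TTTGAA), each searched on both strands.
MCM6: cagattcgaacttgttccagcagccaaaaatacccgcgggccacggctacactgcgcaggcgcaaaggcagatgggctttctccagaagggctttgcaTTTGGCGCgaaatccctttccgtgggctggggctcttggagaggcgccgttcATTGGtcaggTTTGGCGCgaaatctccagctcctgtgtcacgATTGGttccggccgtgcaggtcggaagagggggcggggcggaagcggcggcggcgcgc
E2F1: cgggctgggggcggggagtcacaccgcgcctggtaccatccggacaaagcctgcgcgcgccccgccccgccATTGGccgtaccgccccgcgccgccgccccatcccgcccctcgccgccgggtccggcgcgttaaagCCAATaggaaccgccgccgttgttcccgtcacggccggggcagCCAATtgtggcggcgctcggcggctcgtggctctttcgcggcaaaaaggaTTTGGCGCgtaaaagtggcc
CCNB2: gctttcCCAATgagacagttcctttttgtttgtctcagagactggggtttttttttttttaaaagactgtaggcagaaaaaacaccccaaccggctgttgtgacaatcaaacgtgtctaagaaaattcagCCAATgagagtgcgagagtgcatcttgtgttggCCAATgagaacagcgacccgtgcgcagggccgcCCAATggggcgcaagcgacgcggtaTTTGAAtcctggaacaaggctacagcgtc
CDC20: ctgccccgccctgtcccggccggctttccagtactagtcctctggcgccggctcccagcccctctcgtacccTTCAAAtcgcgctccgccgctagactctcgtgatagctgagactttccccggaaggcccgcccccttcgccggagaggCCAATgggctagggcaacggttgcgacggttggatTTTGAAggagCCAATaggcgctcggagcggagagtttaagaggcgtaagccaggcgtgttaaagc
HMMR: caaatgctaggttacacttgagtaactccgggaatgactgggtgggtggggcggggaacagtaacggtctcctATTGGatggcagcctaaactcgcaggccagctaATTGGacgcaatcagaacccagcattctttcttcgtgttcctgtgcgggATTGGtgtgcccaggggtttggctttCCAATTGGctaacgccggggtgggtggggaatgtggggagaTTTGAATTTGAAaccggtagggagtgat
The MCM6 sequence held the E2F motif starting 152 and 90 bases before the gene's start, and E2F1 held it 20 bases before its own. CCNB2 had a CHR 29 bases before its start and 4 CCAAT boxes upstream of it. In CDC20 a CHR lay 65 bases before the start and another, on the opposite strand, 178 bases before it. HMMR held 2 adjoining CHR matches, 28 and 22 bases before its start, beside 5 CCAAT matches, of which 2 overlap each other on opposite strands.

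Of the 49 genes, 40 matched the RefSeq promoter table by symbol (19 S-phase and 21 mitosis genes), and the search covered 300 bases, from 250 before to 50 after the start. The E2F motif was in 10 of 19 S-phase promoters (52.6%), in 2 of 21 mitosis promoters (9.52%) and in 2.31% of all 27305 promoters in the table. The CHR was in 1 S-phase promoter (5.26%), that of RRM1, in 15 mitosis promoters (71.4%) and in 15.4% of all promoters. CCAAT boxes were in 12 S-phase (63.2%) and 15 mitosis promoters (71.4%), against 35.7% of all. A CCAAT box and a CHR together were in 11 mitosis promoters (52.4%), 1 S-phase promoter (5.26%) and 6.08% of all. A match is only a match of letters, and a promoter without one may hold another form of the motif.

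**Figure D1:**
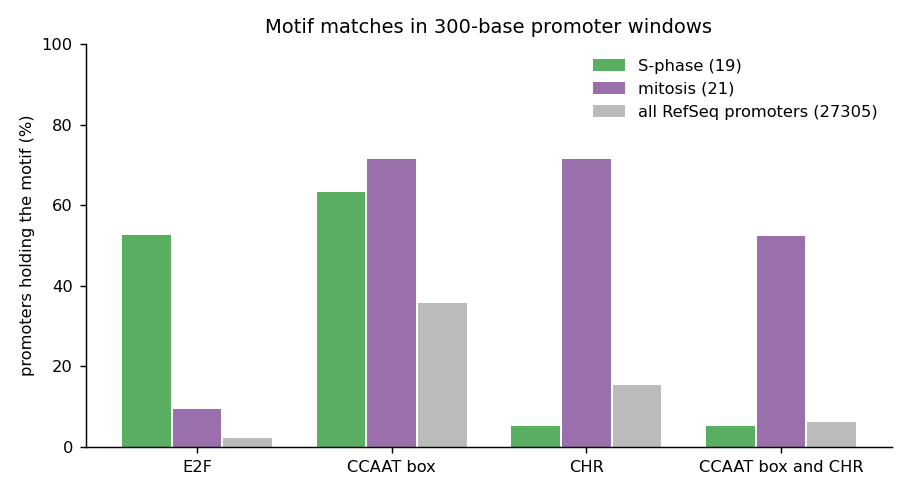
Share of promoter windows (%, 300 bases) that hold each motif on either strand, for the S-phase genes (19 promoters), the mitosis genes (21) and all RefSeq promoters (27305). Of the sets shown, the E2F motif was most frequent in the S-phase promoters (52.6%) and the CHR in the mitosis promoters (71.4%). CCAAT boxes were in 63.2% of the S-phase and 71.4% of the mitosis promoters.

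Levels below are CPM, counts scaled to a common library total with TMM factors so that libraries of different makeup can be compared, and differences are log2 fold changes with their standard error (SE). A difference was called when its Benjamini-Hochberg adjusted p over all genes, from edgeR's quasi-likelihood test, was under 0.05. Libraries held 23.9 to 56.7 M counts. RAI1 counts were not lower in HET or KO cells (at day 7, WT libraries had 34.5 to 66.7 CPM of the library total, HET 48.8 to 88.1 and KO 61 to 86.5), and since counts per gene do not show a disrupted allele, they check the genotype labels neither way. Summed over 9 neuron markers, CPM was 235 to 666 at day 0 over all genotypes, and at day 7 it was 5400 to 11300 in WT, 10500 to 13100 in HET and 11000 to 14000 in KO cells. The 7 pluripotency markers summed to 1990 to 4540 CPM at day 0 over all genotypes, and at day 7 to 49.4 to 61.9 in WT, 72.1 to 147 in HET and 228 to 310 in KO, with no overlap. Most of the day 7 sum in HET and KO was LIN28A (12.5 to 29.9 CPM in WT, 55.0 to 137 in HET and 222 to 305 in KO), while DPPA4 was lower in KO (4.17 to 12.6) than in WT (28.3 to 36.7), and TDGF1 was at 3 counts or fewer in each library. The part of these markers in the results below was not tested. The exons of 19 of the 49 genes overlap those of another gene, and the use of strand in counting was not given in the sources used here, so their counts may hold reads of the neighbour.

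At day 0, before induction, the 3 genotypes had all 49 genes at similar levels, and no difference was called. The mean of log2(CPM + 1) over the S-phase genes was 6.69 in WT cells, 6.68 in HET cells and 6.62 in KO cells. Median differences from WT were −0.04 (S phase) and −0.02 (mitosis) in KO, and −0.02 and −0.03 in HET. MCM6, a helicase subunit, stood at 238, 208, 248 and 237 CPM in WT and at 234, 172, 223 and 229 CPM in KO libraries, which overlapped. CCNB2, a B-type cyclin that partners CDK1 in mitosis, was at 88.1, 80.7, 85.8 and 84.8 CPM in WT and at 80.7, 62.6, 85.7 and 84.8 in KO, again overlapping. The number of genes called by edgeR was 0 for KO against WT (2 at an unadjusted p under 0.05), 0 for HET against WT (2) and 0 for KO against HET (0). DESeq2 also called 0 in each (2, 2 and 0 unadjusted), and limma on log2(TPM + 1) called 0 (0, 0 and 0 unadjusted). Over all genes, the share called in either direction was 2.08% for KO against WT, 1.63% for HET against WT and 0.856% for KO against HET. Replicate 2 was the lowest of its group for 21 of 23 S-phase and 25 of 26 mitosis genes in HET, and for 19 and 21 in KO. The same replicate number had the highest sum over 5 mesenchymal markers in each genotype at day 0 (1120, 1370 and 1440 CPM, against group medians of 309, 388 and 401), and the part of those cells in the result was not tested. In bulk RNA, fewer dividing cells and less of these RNAs in each cell cannot be told apart, here and below.

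The course of induction differed between the 2 groups of genes. In WT cells the S-phase genes fell in larger number by day 3 than the mitosis genes, a difference in counts that was not itself tested. Between days 0 and 3, 14 of the 23 S-phase genes were called lower and 2 higher, against 3 lower and 2 higher of the 26 mitosis genes, and 28.7% of all genes tested were called lower and 31.2% higher. The largest fall was in CDC6, the licensing factor, by 1.86 on the log2 scale. E2F1, the transcription factor, rose 2.12 ± 0.21 (SE), from 34.6 to 40.1 CPM at day 0 to 156 to 182 CPM at day 3, with no overlap. CDK1, the kinase that starts mitosis, rose 1.47 ± 0.53, and CCNE2, an E-type cyclin of the G1/S step, rose 1.197. The mitosis genes called lower were CCNB1 (−1.02), AURKA (−1.002) and CENPF (−1.10). On log2(TPM + 1) the median of all genes was −0.38, and 14157 of the 22268 genes tested were called in either direction. There 37 of the 49 were called lower and 1 higher. The lower ones were 20 S-phase and 17 mitosis genes (list medians −1.35 and −1.02), so the contrast between the 2 groups was smaller on that scale.

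From day 3 to day 7 all 49 genes fell in WT cells (22.9% of all genes were called lower), with median changes of −2.99 for the S-phase and −3.66 for the mitosis genes. HET cells followed the same order, with 16 S-phase and 3 mitosis genes lower and 2 of each higher at day 3 against day 0 (23.9% of all genes lower, 24.4% higher). On log2(TPM + 1) that HET comparison had 23 lower (16 S-phase and 7 mitosis genes) and 1 higher. The median of all genes was −0.30 there, and the share of all genes called is not given here. All 49 fell again in HET cells by day 7 (20.5% of all genes), with medians of −2.74 and −5.97. In KO cells more of the 49 genes were called lower by day 3, a difference in counts. At day 3, 21 S-phase and 20 mitosis genes were below day 0 and 1, E2F1 (1.65), was above it (29.6% of all genes were lower, 29.7% higher). On log2(TPM + 1) KO had 43 lower (21 S-phase and 22 mitosis genes) and 1 higher, against 37 lower in WT. The change to day 3 is compared between KO and WT by interaction terms below. By day 7, 20 S-phase and all 26 mitosis genes had fallen further in KO cells (23.6% of all genes), with medians of −1.82 and −5.67.

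**Figure D2:**
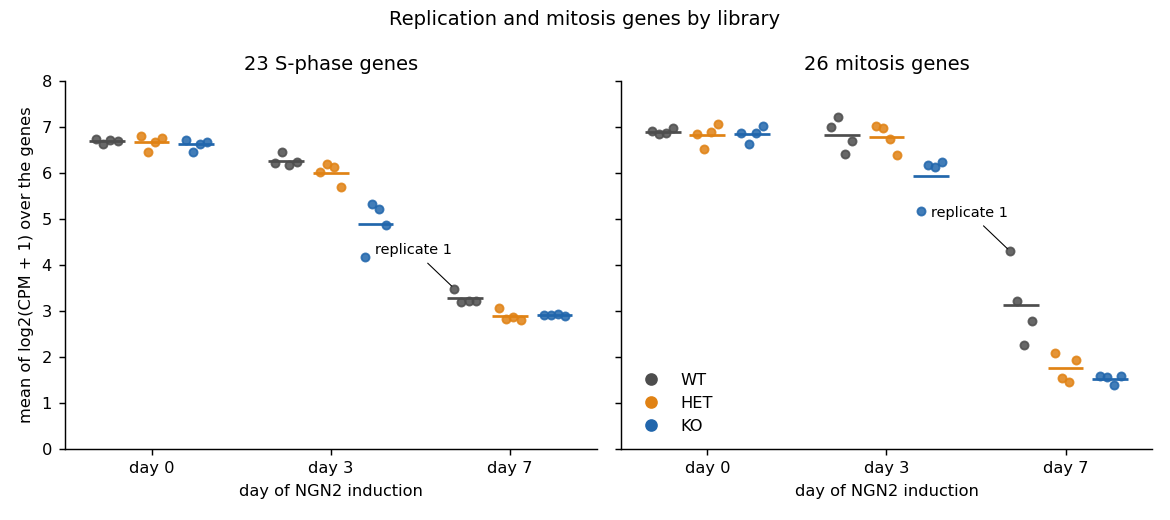
Mean of log2(CPM + 1) over the 23 S-phase genes (left) and 26 mitosis genes (right) in each library (points) by day of induction, with the mean of the 4 libraries as a bar. The genotypes coincide at day 0, KO libraries lie below WT at day 3 in both panels (4.17 to 5.32 against 6.17 to 6.45 for S phase), and WT day 7 replicate 1 is marked.

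At day 3 the KO cells had less RNA of nearly every replication gene than WT cells. In all, 38 of the 49 genes were lower in KO, and 8.93% of all genes tested were called lower in this comparison. They were 22 of the 23 S-phase genes (median −1.44) and 16 of the 26 mitosis genes (median −0.93), against a median of −0.05 over all genes. The whole helicase and licensing group fell, 11 of 11. MCM2, a subunit of the helicase ring, was at 186, 192, 167 and 182 CPM in WT and at 39.1, 97.8, 61.3 and 45.3 CPM in KO. No KO library reached a WT one, and the difference was −1.61 ± 0.23 (adjusted p 0.000331). MCM6 was at 120, 165, 131 and 139 CPM in WT and at 28.99, 76.8, 59.4 and 47.4 CPM in KO, also without overlap (−1.41 ± 0.25, adjusted p 0.00135). The other ring subunits changed by −1.46 (MCM3), −1.60 (MCM4), −1.25 (MCM5) and −0.77 (MCM7).

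Within this group the loaders of the ring, CDT1 and CDC6, had the largest differences. CDT1 was at 48.8, 47.3, 40.0 and 68.8 CPM in WT and at 4.61, 12.2, 11.1 and 15.8 CPM in KO, so that every KO library was below every WT library (−2.25 ± 0.36, adjusted p 0.000673). CDC6 was at 39.0, 52.3, 46.8 and 57.04 CPM in WT and at 6.01, 20.6, 17.0 and 11.9 CPM in KO (−1.85 ± 0.30, adjusted p 0.000732). The groups did not overlap for CDC6 either. CDC45, which joins the ring to form the active helicase, was at 29.4, 35.7, 30.9 and 18.2 CPM in WT and at 6.20, 12.8, 15.6 and 9.79 CPM in KO, without overlap, and changed by −1.39 ± 0.33 (adjusted p 0.00812). GINS2, a subunit of the GINS complex, changed by −1.62 and MCM10, which helps start the fork, by −1.44.

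At the fork itself 4 of 5 genes fell. PCNA, the clamp that holds the polymerases on DNA, was at 174, 230, 216 and 186 CPM in WT and at 30.9, 71.9, 105 and 69.4 CPM in KO (−1.56 ± 0.29, adjusted p 0.00186), with no overlap. RFC2, a subunit of the clamp loader, changed by −1.55, FEN1, which trims the lagging strand, by −1.16 and CHAF1B, which places histones on new DNA, by −1.78. The exception was POLA1, the catalytic subunit of the polymerase that makes the first stretch of new DNA. POLA1 was at 95.5, 130, 87.0 and 71.6 CPM in WT and at 61.8, 128, 86.0 and 59.7 CPM in KO. These overlapped, and the difference of −0.23 ± 0.27 did not pass (adjusted p 0.577).

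All 3 genes of nucleotide supply fell at day 3. RRM2, the small subunit of ribonucleotide reductase, was at 287, 356, 226 and 324 CPM in WT and at 55.0, 150, 153 and 115 CPM in KO (−1.36 ± 0.32, adjusted p 0.00791). KO libraries were again all below WT. RRM1, the large subunit, changed by −1.03 and TYMS, which makes thymidylate, by −1.39. Among the 4 regulators of the G1/S step, all called, the cyclins changed by −1.61 (CCNE1) and −1.20 (CCNE2) and the repressor E2F8 by −1.97. E2F1 changed less, from 182, 162, 158 and 156 CPM in WT to 96.0, 124, 124 and 113 CPM in KO (−0.55 ± 0.14, adjusted p 0.0151), still without overlap. Each of these differences was fitted again 8 times, leaving out 1 of the 8 libraries compared, and among the S-phase genes only CCNE2 (called in 6 of 8) and E2F1 (7 of 8, with −0.48 and no call without KO replicate 1) lost a call.

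The mitosis genes were lower in KO at day 3 by smaller amounts and with more overlap between libraries. Called lower were 5 of 7 mitotic cyclins, CDK1 and APC/C genes (median −1.08), 4 of 6 kinases (−0.89), 5 of 8 genes of chromosomes and kinetochores (−0.98) and 2 of 5 genes of the spindle and cytokinesis (−0.55). CDK1 was at 168, 228, 226 and 282 CPM in WT and at 33.1, 57.1, 88.2 and 109 CPM in KO (−1.67 ± 0.33, adjusted p 0.00294), and the groups did not overlap. AURKB, the kinase of the chromosomal passenger complex, was at 131, 118, 68.5 and 120 CPM in WT and at 16.2, 35.6, 44.8 and 59.1 CPM in KO (−1.51 ± 0.33, adjusted p 0.00573), without overlap. CDC20, the activator of the anaphase-promoting complex, was at 122, 103, 61.7 and 87.8 CPM in WT and at 25.7, 44.2, 46.5 and 62.6 CPM in KO (−1.09 ± 0.26, adjusted p 0.00829). Here the highest KO library lay just above the lowest WT library.

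CCNB2 was at 100, 93.8, 57.9 and 87.6 CPM in WT and at 25, 43.4, 51.5 and 68.2 CPM in KO at day 3 (−0.87 ± 0.26, adjusted p 0.0281). BIRC5, the survivin subunit of the passenger complex, was at 136, 136, 86.7 and 115 CPM in WT and at 41.8, 65.2, 61.6 and 68.3 CPM in KO (−1.02 ± 0.19, adjusted p 0.00166). The groups overlapped for CCNB2 and not for BIRC5. CCNB2 was called in only 2 of the 8 fits without 1 library, with −0.67 without KO replicate 1 at the smallest, and BIRC5 in all 8. NDC80, which ties kinetochores to microtubules, was at 68.4, 91.4, 52.1 and 58.9 CPM in WT and at 17.1, 36.8, 32.3 and 27.8 CPM in KO, without overlap (−1.27 ± 0.25, adjusted p 0.00293). Genes that missed the threshold included CCNB1 (−0.77 ± 0.29, adjusted p 0.0756), AURKA (−0.73 ± 0.30, 0.103), UBE2C (−1.08 ± 0.37, 0.0503) and MKI67 (−0.93 ± 0.39, 0.103), all of which had overlapping groups. Same-numbered KO and WT libraries deviated together at day 3. With the replicate number as a block, edgeR called 20 mitosis genes in place of 16 (the share of all genes with the block is not given). The 4 gained were CCNB1 (−0.68, adjusted p 0.0439), UBE2C (−1.15, 0.0277), MKI67 (−0.93, 0.0280) and the checkpoint kinase BUB1 (−0.77, 0.0350, against 0.0604 without the block), whereas AURKA was still not called.

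KO day 3 replicate 1 was the lowest of its group for 21 of 23 S-phase and all 26 mitosis genes, and it also had the highest sum of the 9 neuron markers (7640 CPM, group 4680 to 7640, HET 1820 to 4560, WT 1310 to 1620), whose part in the result was not tested. The 5 mesenchymal markers summed to 218 to 556 CPM in WT, 135 to 852 in HET and 51.1 to 246 in KO at day 3, with the lowest value in KO replicate 1 and DCN at 3 counts or fewer in every library, and their part was not tested either. Without that library 29 of the 38 calls were left, 20 S-phase and 9 mitosis genes, and BUB1B, CCNB2, CCNE2, E2F1, NUF2, PLK1, TOP2A, TPX2 and TTK no longer passed. Without WT day 3 replicate 2 there were also 29, with 22 S-phase and 7 mitosis genes, and BUB1B, CCNB2, CENPA, NUF2, NUSAP1, PLK1, TOP2A, TPX2 and TTK no longer passed.

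In HET cells at day 3 no gene passed against WT. MCM2 was at 121, 143, 137 and 101 CPM in HET, below every WT library and above every KO library. CDT1 was at 32.9, 25.5, 22.5 and 51.4 CPM in HET, overlapping WT and not KO. CCNB2, at 91.3, 77.7, 71.2 and 82.3 CPM, was within the WT range. RRM2, at 234 to 537 CPM in HET, overlapped WT (226 to 356) and had the highest mean of the 3 genotypes in HET (339, against 298 in WT and 118 in KO). Only HET replicate 1 (537) lay above the WT range, and the HET median (292) was below that of WT (306). EdgeR called 0 genes (2 S-phase genes at an unadjusted p under 0.05), DESeq2 0 (2) and limma on log2(TPM + 1) 0 (0), and 3.28% of all genes were called in either direction. The median difference was −0.27 over the S-phase and −0.03 over the mitosis genes, and on log2(TPM + 1) these medians turned to 0.0332 and 0.26, against 0.13 over all genes.

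Set directly against HET, KO cells at day 3 were lower in 26 genes, 20 S-phase and 6 mitosis genes, where 1.58% of all genes were called lower. By role these were 10 of 11 helicase and licensing genes, 4 of 5 fork genes, 2 of 3 nucleotide genes and all 4 G1/S regulators. Of the mitosis genes they were 4 of the 7 cyclins, CDK1 and APC/C genes and 2 of the 8 chromosome and kinetochore genes. This count rested on single libraries. It was 7 without HET day 3 replicate 1, 11 and 15 without HET replicates 2 and 3, 12 and 11 without KO replicates 1 and 3, and 6 when only the 8 libraries compared were fitted.

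**Figure D3:**
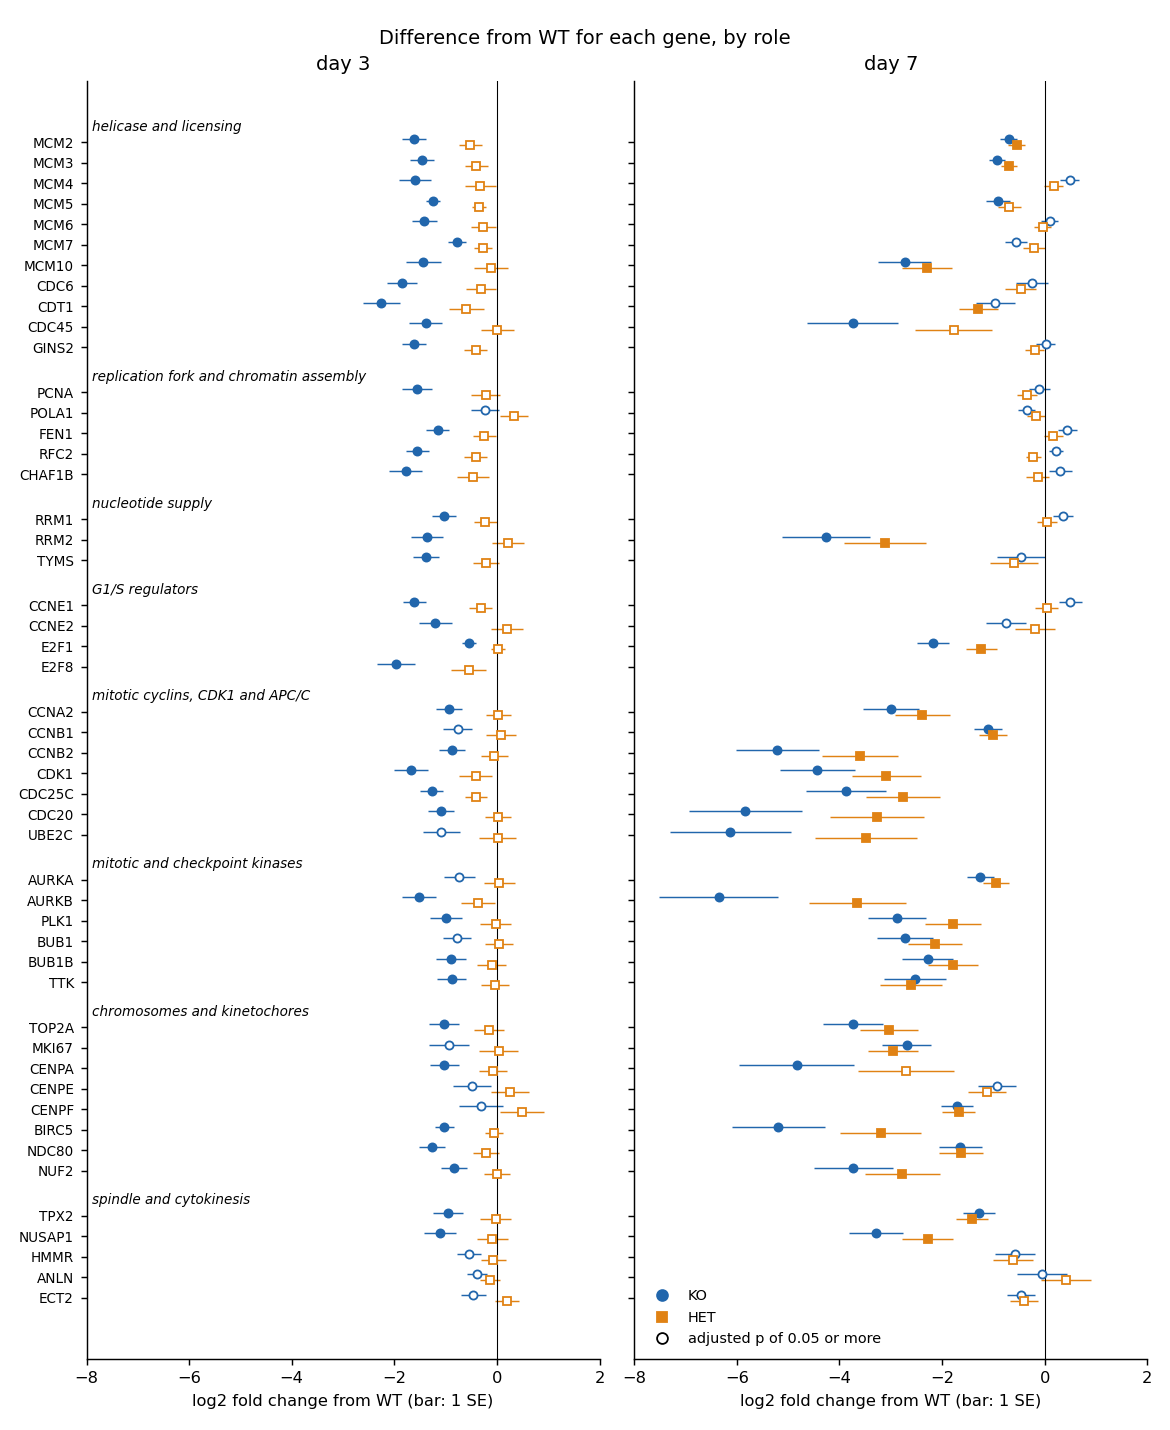
Log2 fold change from WT of each gene (bars: 1 SE) in KO (circles) and HET (squares) at days 3 and 7, ordered by role, with open symbols for an adjusted p of 0.05 or more. At day 3 the filled KO symbols run through the replication genes (22 of 23), and at day 7 through the mitosis genes (22 of 26); E2F8 was too low to be tested at day 7.

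By day 7 the larger differences from WT were in the mitosis genes. Most mitosis genes were far lower in KO and in HET cells than in WT, while most replication genes, now low in all genotypes, were not called. In KO, 29 genes were lower than in WT (15.6% of all genes tested), namely 22 of 26 mitosis genes (median −2.80) and 7 of 22 tested S-phase genes (median −0.40), against a median of −0.04 over all genes. E2F8 did not pass the filter on low counts, with 30, 5, 5 and 5 counts in WT and 1, 0, 0 and 0 in KO. In HET, 27 genes were lower (6.1% of all genes), 21 mitosis genes (median −2.33) and 6 S-phase genes (median −0.28). Both sets of calls use the same 4 WT libraries. No gene was called higher in either. The 5 mesenchymal markers also differed with genotype at day 7, with sums of 26 to 35 CPM in WT, 1.04 to 28.8 in HET and 0.903 to 3.52 in KO, KO lying fully below WT. In WT this sum was nearly all COL1A1 and COL1A2, with COL3A1, DCN and LUM at 3 counts or fewer in every library, and the part of these markers in the result was not tested.

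Among the 11 helicase and licensing genes 5 were lower in KO and 4 in HET at day 7. MCM6 was at 25.96, 22.2, 29.9 and 19.7 CPM in WT, at 26.2, 21.8, 28.1 and 19.4 in HET and at 28.6, 24.2, 26.6 and 25.9 in KO. The 3 groups lay on top of each other, and KO differed from WT by 0.10 ± 0.17 (adjusted p 0.674). MCM2 was at 21.2, 19.9, 26.3 and 23.9 CPM in WT, at 19.0, 16.4, 15.8 and 11.8 in HET and at 15.02, 13.8, 14.3 and 13.2 in KO. Both groups lay below WT, by −0.70 ± 0.16 in KO (adjusted p 0.00559) and −0.54 ± 0.16 in HET (0.0386), but the HET call held in only 1 of 8 fits without 1 library (−0.68 to −0.43). MCM3 (−0.93), MCM5 (−0.91) and MCM10 (−2.73) were also lower in KO, and MCM3 (−0.70), MCM10 (−2.29) and CDT1 (−1.29) in HET. The CDT1 call held in 3 of 8 such fits, the smallest difference being −1.03 without WT replicate 1. CDC45 was near the limit of detection, with 20, 19, 1 and 37 counts in WT, 5, 5, 2 and 7 in HET and 3, 1, 1 and 0 in KO. The KO counts passed (adjusted p 0.00668) and the HET counts did not (0.13).

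None of the 5 fork genes was called at day 7. PCNA was at 24.5, 18.7, 16.7 and 21.1 CPM in WT and at 21.2, 20.6, 16.8 and 17.2 CPM in KO, with full overlap (−0.11 ± 0.20, adjusted p 0.712). POLA1 was at 61.3, 40.6, 41.4 and 41.5 CPM in WT and at 39.8, 37.2, 33.3 and 35.9 CPM in KO, which did not overlap, but the difference of −0.35 ± 0.17 did not pass (adjusted p 0.132). Several replication genes had point estimates above 0 in KO without passing, among them MCM4 (0.49, adjusted p 0.0617), CCNE1 (0.50 ± 0.23, adjusted p 0.108), FEN1 (0.44), RRM1 (0.36), CHAF1B (0.31) and RFC2 (0.22). Under other settings some of these were called higher, MCM4 by DESeq2 (0.52, adjusted p 0.0490), with the replicate block (0.49, edgeR, 0.0411) and in the edgeR fit of the 8 libraries alone (0.48, 0.0110). In that last fit RRM1 was also called (0.35, edgeR, adjusted p 0.0499). CCNE1 was called higher by edgeR with the share of small structural RNAs as a covariate (0.67, adjusted p 0.0465) and without WT replicate 3 (0.73, 0.0243), and by limma on rescaled TPM (0.57, adjusted p just under 0.05).

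Outside the helicase and licensing group, RRM2 and E2F1 were the S-phase genes called at day 7. RRM2 had 637, 278, 74 and 256 counts in WT, 104, 9, 8 and 20 in HET and 28, 12, 15 and 10 in KO, or 2.19 to 18.8 CPM in WT against 0.299 to 0.725 in KO. The KO libraries were all below WT and the HET range overlapped it (KO −4.27 ± 0.86, adjusted p 0.00246; HET −3.11 ± 0.80, adjusted p 0.0205). Without WT day 7 replicate 1 these were −3.49 and −2.33, and the HET call held in 4 of 8 fits without 1 library. E2F1 was at 11.3, 10.5, 10.2 and 21.4 CPM in WT, at 6.86, 5.37, 3.48 and 7.06 in HET and at 2.15, 3.19, 2.57 and 3.92 in KO. All HET and KO libraries of E2F1 were below all WT libraries, and the highest KO library was above the lowest HET one (KO −2.18 ± 0.32, adjusted p 0.000357; HET −1.23 ± 0.31, adjusted p 0.0176). The HET call of E2F1 was lost without HET replicate 3 (−1.05) and held in the other 7 of 8 fits.

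**Figure D4:**
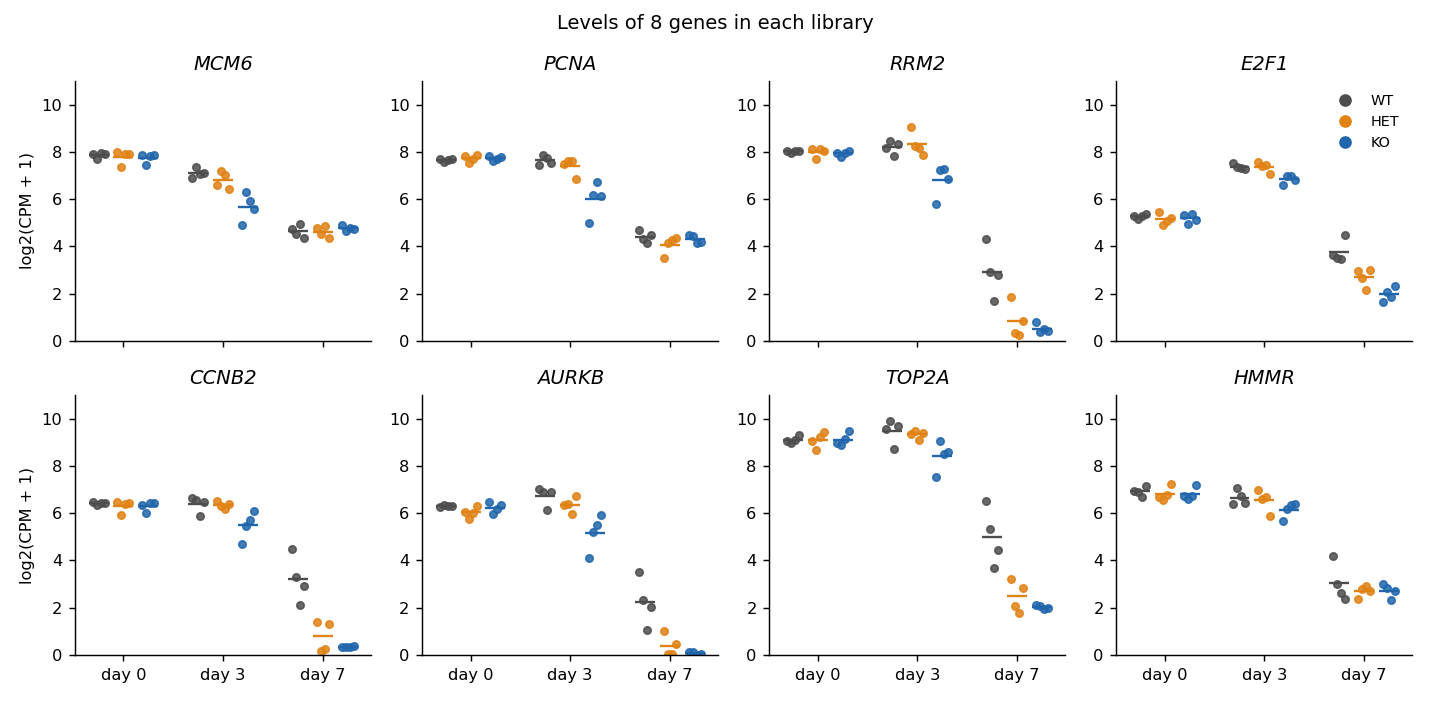
Levels of 4 S-phase genes (MCM6, PCNA, RRM2, E2F1) and 4 mitosis genes (CCNB2, AURKB, TOP2A, HMMR) in each library, as log2(CPM + 1), by day and genotype, with group means as bars. MCM6 and PCNA separate KO from WT at day 3 and not at day 7. CCNB2, AURKB and TOP2A separate WT from HET and KO most at day 7, where HET and KO overlap. No difference from WT was called for HMMR.

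The group of mitotic cyclins, CDK1 and the genes that have the cyclins degraded had the lowest medians at day 7, with 7 of 7 called in both KO (median −4.44) and HET (median −3.09). CCNB2 was at 21.4, 8.86, 3.37 and 6.66 CPM in WT, at 1.61, 0.137, 0.197 and 1.47 in HET and at 0.259, 0.250, 0.274 and 0.314 in KO. All HET and KO libraries were below all WT libraries. The difference was −5.21 ± 0.82 in KO (adjusted p 0.000554) and −3.59 ± 0.74 in HET (adjusted p 0.00705), or −4.52 and −2.90 without WT replicate 1. CDC20 had 500, 229, 51 and 209 counts in WT, 77, 5, 4 and 14 in HET and 12, 1, 1 and 3 in KO (adjusted p 0.00163 in KO and 0.0306 in HET). UBE2C, the ubiquitin-conjugating enzyme of the same complex, had 742, 338, 55 and 280 counts in WT, 97, 2, 2 and 21 in HET and 8, 6, 2 and 4 in KO (adjusted p 0.00191 and 0.0321). For both, KO counts were all below WT and 1 HET library lay within the WT range. Their HET calls each held in 3 of 8 fits without 1 library, and not without WT replicate 1.

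CDK1 at day 7 was at 27.6, 7.04, 3.23 and 2.84 CPM in WT, at 1.66, 0.684, 0.789 and 1.75 in HET and at 0.518, 0.524, 0.328 and 0.533 in KO. The 3 groups were fully apart (KO −4.44 ± 0.73, adjusted p 0.000748; HET −3.09, adjusted p 0.00938), and the values were −3.20 and −1.85 without WT replicate 1. CCNB1 fell less. It was at 14.2, 8.03, 5.50 and 8.29 CPM in WT, at 5.74, 4.46, 4.04 and 3.81 in HET and at 4.64, 4.82, 3.97 and 3.58 in KO, with the KO libraries all below WT (−1.10 ± 0.28, adjusted p 0.00901) and 1 HET library above the lowest WT one (−1.01, adjusted p 0.0269). The HET call of CCNB1 held in 4 of 8 fits, with −0.69 without WT replicate 1.

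All 6 mitotic and checkpoint kinases were lower in KO (median −2.62) and in HET (median −1.962) at day 7. AURKB had 348, 171, 36 and 131 counts in WT, 40, 1, 1 and 10 in HET and 4, 3, 0 and 1 in KO (adjusted p 0.00135 in KO and 0.0209 in HET). The highest HET library (40 counts) and the lowest WT library (36) met in counts, but not in CPM. AURKA, the kinase of spindle poles, was at 10.5, 6.89, 5.001 and 5.98 CPM in WT, at 4.46, 3.81, 2.66 and 3.93 in HET and at 2.77, 3.00, 2.93 and 3.29 in KO. Both groups lay below WT, KO by −1.26 ± 0.26 (adjusted p 0.00304) and HET by −0.95 (adjusted p 0.0272). Without 1 library the HET calls held in 5 of 8 fits for AURKB and 4 of 8 for AURKA, and not without WT replicate 1.

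Of the 8 genes of chromosomes and kinetochores, 7 were lower in KO and 6 in HET at day 7. TOP2A, the topoisomerase that untangles chromosomes, was at 90.5, 39.1, 11.9 and 20.8 CPM in WT, at 8.19, 3.23, 2.42 and 6.19 in HET and at 3.34, 3.17, 2.82 and 2.98 in KO. No mutant library reached the WT range (KO −3.74 ± 0.59, adjusted p 0.000544; HET −3.04 ± 0.57, adjusted p 0.00437), and the differences were −2.97 and −2.27 without WT replicate 1. MKI67, the Ki-67 antigen of dividing cells, was at 44.9, 30.2, 6.57 and 17.3 CPM in WT, at 4.41, 2.52, 1.92 and 4.13 in HET and at 4.51, 3.37, 3.89 and 3.79 in KO. HET and KO lay side by side below WT (−2.95 ± 0.49, adjusted p 0.00227, and −2.69 ± 0.48, adjusted p 0.00118).

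BIRC5 at day 7 was at 11.4, 4.55, 1.69 and 5.63 CPM in WT and at 1.301, 0.1095, 0.148 and 1.03 in HET, while the KO libraries held 9, 4, 1 and 9 counts. Every mutant library was below WT (adjusted p 0.00102 in KO and 0.0171 in HET). NDC80 was at 8.57, 4.33, 2.58 and 2.40 CPM in WT, at 1.43, 1.53, 1.28 and 1.63 in HET and at 0.725, 1.45, 1.48 and 2.13 in KO, also without overlap (KO −1.64 ± 0.43, adjusted p 0.0108; HET −1.62, adjusted p 0.0227). The HET call of BIRC5 held in 7 of 8 fits and that of NDC80 in 5 of 8, neither without WT replicate 1. CENPA, the histone variant of centromeres, passed in KO only (−4.83, −3.91 without WT replicate 1, with HET at −2.70 and an adjusted p of 0.0711), and the difference between HET and KO was not called.

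In the spindle group NUSAP1, which bundles microtubules, was at 27.5, 11.6, 8.20 and 8.50 CPM in WT, at 5.41, 1.45, 1.505 and 3.21 in HET and at 1.53, 1.62, 0.876 and 1.73 in KO at day 7. HET and KO were below every WT library (KO −3.29 ± 0.52, adjusted p 0.000599; HET −2.28 ± 0.50, adjusted p 0.00938). TPX2, which activates AURKA on the spindle, was at 28.2, 15.9, 9.74 and 11.4 CPM in WT, at 8.93, 4.87, 5.38 and 5.48 in HET and at 6.99, 6.99, 6.40 and 6.68 in KO. It too did not overlap (KO −1.28 ± 0.32, adjusted p 0.00821; HET −1.42 ± 0.32, adjusted p 0.0107).

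Besides POLA1, 4 mitosis genes passed against WT in neither mutant on any day in the main edgeR fits. HMMR, a spindle protein, was at 17.4, 7.04, 5.12 and 4.12 CPM in WT at day 7, at 4.23, 5.89, 6.61 and 5.48 in HET and at 7.07, 6.12, 4.08 and 5.49 in KO. Its groups overlapped, and the KO difference of −0.59 ± 0.39 (adjusted p 0.267) became 0.06 without WT replicate 1. ECT2, the exchange factor that sets the division furrow, was at 41.3, 18.4, 17.2 and 15.2 CPM in WT and at 16.7, 18.9, 16.2 and 15.9 in KO (−0.46, adjusted p 0.217). ANLN, the scaffold of that furrow, was at 28.6, 18.1, 15.3 and 16.0 CPM in WT, at 7.35, 32.9, 13.8 and 51.4 in HET and at 11.3, 19.99, 15.9 and 28.3 in KO (−0.06, adjusted p 0.937). ECT2 libraries overlapped, and the ANLN groups overlapped fully. CENPE, the kinetochore kinesin, was at 35.3, 15.5, 10.7 and 9.24 CPM in WT, at 5.66, 9.17, 9.60 and 8.37 in HET and at 11.5, 9.56, 8.43 and 8.12 in KO, partly overlapping (KO −0.93, adjusted p 0.0677; HET −1.13, adjusted p 0.0571). Under other settings CENPE was called at day 7, in KO without WT replicate 3 and without WT replicate 4. In HET it was called in the same 2 fits, by DESeq2 and without the filter. Among the mitosis genes with a promoter in the table, CHR matches were in 3 of these 4 (not in CENPE) and in 12 of the 17 that were called in KO at day 7 (not in CCNA2, CCNB1, CDC25C, AURKB and BUB1).

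WT day 7 replicate 1 had the highest level of its group for all 26 mitosis genes and 12 of 23 S-phase genes. Its mean log2(CPM + 1) over the mitosis genes was 4.30, against 3.22, 2.25 and 2.79 in the other WT libraries. These means were widely spread, and by the limit used for single libraries in the closing section replicate 1 was not apart in them. It also had the lowest sum of the 9 neuron markers (5400 CPM, group up to 11300), and their part in the result was not tested. Without it the KO comparison had 29 lower genes, the same ones (12.1% of all genes), with medians of −0.10 for S phase and −2.21 for mitosis. The HET comparison had 12 instead of 27 (3.99% of all genes), 3 S-phase and 9 mitosis genes, and AURKA, AURKB, BIRC5, BUB1, BUB1B, CCNB1, CDC20, CDC25C, CDT1, MCM2, NDC80, NUF2, PLK1, RRM2 and UBE2C no longer passed. HET also had 13 without HET replicate 2 and 12 without HET replicate 3. The lowest mitosis mean of the WT libraries at day 7, 2.25, was above the highest in HET, 2.07, and in KO, 1.58. At day 7 the 6 neural progenitor markers summed to 313 to 556 CPM in WT, 433 to 697 in HET and 163 to 390 in KO.

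KO and HET cells were also set against each other at day 7. The mean log2(CPM + 1) over the mitosis genes was 2.07, 1.55, 1.46 and 1.94 in HET and 1.58, 1.56, 1.39 and 1.58 in KO. No gene was called between them by edgeR (0, with 6 at an unadjusted p under 0.05), where 1.4% of all genes were called in either direction. DESeq2 called 1, an S-phase gene (14 unadjusted), and limma on log2(TPM + 1) called 0 (2 unadjusted). The median difference was 0.14 over the S-phase and −0.60 over the mitosis genes.

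Over days 3 and 7 together, 23 genes were lower in KO at both day 3 and day 7, which is 23 of the 38 at day 3 and 23 of the 29 at day 7. The 15 called at day 3 only were all S-phase genes, and the 6 called at day 7 only were all mitosis genes (AURKA, BUB1, CCNB1, CENPF, MKI67 and UBE2C). Of all genes tested, 8.93% were called lower at day 3 and 15.6% at day 7. The share called lower on both days, or on 1 day only, was not counted over all genes, so these overlaps have no background to be read against. Whether the KO difference itself changed over time was tested with interaction terms over all 36 libraries. From day 0 to day 3, 16 genes fell more in KO than in WT, 15 S-phase genes and NDC80 (3.19% of all genes were lower in this term), with medians of −1.38 over S phase and −0.87 over mitosis. For example, MCM4 fell 1.52 ± 0.32 further in KO and CCNE1 1.53 ± 0.30 further. On log2(TPM + 1) this term called 0 genes.

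From day 3 to day 7 the KO difference moved in opposite directions in the 2 groups of genes. It rose for 12 genes, all of S phase (7.6% of all genes were higher), and fell for 21, of which 18 were mitosis genes (10.9% of all genes were lower). The S-phase genes that rose relative to WT were MCM2 (0.88), MCM4 (2.06), MCM6 (1.49), CDC6 (1.58), CDT1 (1.28), GINS2 (1.62), PCNA (1.44), FEN1 (1.57), RFC2 (1.75), CHAF1B (2.06), RRM1 (1.37) and CCNE1 (2.09). Those that fell with the mitosis genes were CDC45 (−2.38), RRM2 (−2.92) and E2F1 (−1.65). The medians were 0.91 over S phase and −1.93 over mitosis, against −0.10 over all genes, and 1.35 and −1.30 without WT day 7 replicate 1. On log2(TPM + 1) the same term called 1 gene higher and 0 lower, and on log2(TPM + 0.1) 3 higher and 5 lower.

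The same term for HET against WT gave 22 genes lower from day 3 to day 7, 19 mitosis genes and MCM10 (−2.15), RRM2 (−3.28) and E2F1 (−1.23), where 2.69% of all genes were lower. The medians were −0.14 over S phase and −2.24 over mitosis, and 15 genes were left without WT day 7 replicate 1. From day 0 to day 3 edgeR called 0 genes for HET against WT (3 at an unadjusted p under 0.05), as did DESeq2 (3) and limma on log2(TPM + 1) (0), with 0.271% of all genes called in either direction.

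Measured against their own day 0 level, the genotypes differed most over the S-phase genes at day 3 and over the mitosis genes at day 7. At day 3 the median S-phase gene kept 69.9% of its day 0 CPM in WT, 52.1% in HET and 25.7% in KO. At day 7 these medians were 9.62%, 7.56% and 8.29%. The median mitosis gene kept 96.2%, 99.5% and 54.0% at day 3 and 7.13%, 1.55% and 0.851% at day 7. Without WT day 7 replicate 1 the WT medians at day 7 were 9.60% (S phase) and 4.74% (mitosis). No mitosis gene was under 1% of its day 0 level in WT at day 7, with or without that library, while 6 were in HET and 15 in KO. Of the S-phase genes 1 was under 1% in WT (2 without replicate 1), 5 in HET and 5 in KO. Single S-phase genes went against their median, as RRM2 ended at 3.24%, 0.381% and 0.179% of its day 0 level in WT, HET and KO, and E2F1 at 35.4%, 16.2% and 8.29%. The best kept were E2F1 and MCM7 (25.9%) in WT, MCM7 (22.2%) in HET and RRM1 (24.6%) in KO. The lowest shares among the mitosis genes in KO were those of AURKB and CDC20, whose KO libraries were mostly at 3 counts or fewer, so that their order cannot be read.

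**Figure D5:**
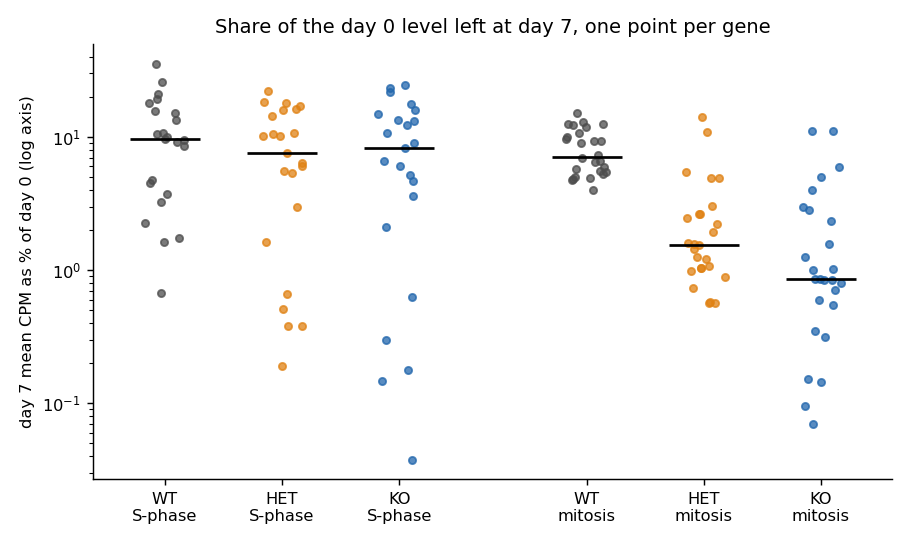
Mean CPM at day 7 as a percentage of the day 0 mean of the same genotype (log axis), 1 point per gene, for the S-phase and mitosis genes in WT, HET and KO, with the median as a black bar. The S-phase medians lie between 7.56% and 9.62%, and the mitosis medians step down from 7.13% in WT (4.74% without replicate 1) to 1.55% in HET and 0.851% in KO.

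Compared per length, as TPM rescaled without 5 abundant small structural RNAs, UBE2C was the most abundant mitosis gene in WT cells at day 0 (331, mean of 4 libraries) and at day 7 (28.9). The WT day 7 mean had a standard deviation of 24.7, with 55 counts in replicate 3 and 742 in replicate 1, so its rank need not hold in each library. In KO cells at day 7 UBE2C was at 0.720, below ANLN (14.8) and ECT2 (11.9). MCM7 was the most abundant S-phase gene at day 7 on this scale in each genotype (WT 77.0, HET 83.7, KO 65.0). PCNA was the most abundant at day 0 in WT (355).

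Other genes of the same processes were counted for comparison. Beside these counts, the shares of all genes called lower and higher were 8.93% and 12.6% for KO at day 3, 15.6% and 17.0% for KO at day 7, and 6.1% and 8.31% for HET at day 7. Of 28 further replication genes, 25 were lower in KO at day 3 (median −1.15), led by TK1 (−2.22), PRIM1 (−1.78) and ORC1 (−1.76). Of 32 further mitosis genes, 21 were lower (median −1.01; 28 with the replicate block), with CENPM (−2.05), CENPK (−1.45) and SPC24 (−1.42) the lowest. At day 7 in KO, 10 of the 27 tested replication genes were lower and 3 higher, the lowest being E2F2 (−5.35), E2F7 (−3.03) and ASF1B (−2.28) and the higher ones, a smaller share than over all genes, CDC25A (1.35), POLE (0.90) and CDC7 (0.76). Of the 32 mitosis genes 19 were lower, led by SPC24 (−4.75), ESPL1 (−4.70) and DLGAP5 (−3.72). In HET at day 7, 6 replication genes were lower (E2F2 −3.59, E2F7 −2.80 and ASF1B −1.74 the lowest) and 1, CDC25A (1.09), was higher, and 17 mitosis genes were lower.

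Among genes that set the entry into and exit from the cycle, calls were in both directions. At day 0 those called were BTG1 in KO (0.38) and CDK6 in HET (0.78), where 1.66% and 1.22% of all genes were called higher. Of 22 such genes, 7 were lower and 1 higher in KO at day 3, the lower ones led by the CDK4 and CDK6 inhibitor CDKN2C (−1.59), the cyclin CCND3 (−1.55) and the kinase CDK4 (−1.20). The higher one was CCND1, cyclin D1 (2.32). With the replicate block 5 were higher, the gained ones being CDKN1C (0.88, edgeR, adjusted p 0.0123), RB1 (0.59, 0.0130), CDK6 (0.59, 0.0175) and BTG2 (0.43, 0.0167), and at day 0 in KO the block added CDKN1A (1.03, edgeR, adjusted p 0.0227). In HET at day 3 only CDK4 was called (−0.75; 0.761% of all genes were lower), and RB1 was higher with the block (0.62, edgeR, adjusted p 0.0346). At day 7 in KO, 7 were lower, led by CDKN2C (−5.83), BTG2 (−2.54) and CDKN1A (−1.69), the gene of p21, and 3 were higher, CCND1 (3.68), CCND2 (1.16) and the MuvB subunit LIN54 (0.59). In HET at day 7, CCND1 (3.81) and CCND2 (1.17) were higher and BTG2 (−1.16) was lower. Without the block, the counts of higher genes in KO on both days were smaller shares of the 22 than those over all genes. So was the count of lower genes in HET cells at day 7, when the share of higher genes was near that over all genes. Shares of all genes called with the block are not given, so its counts, here and elsewhere, have no background to be read against.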

How the data were processed

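Expected counts and TPM per gene were deposited by the authors for 36 libraries of 151 bp paired-end reads. The submitters' processing notes name STAR 2.7.8a, RSEM 1.3.3, cutadapt 4.8, FastQC 0.11.8, MultiQC 1.20 and GRCh38; the annotation and the use of strand were not given in the sources used here. The deposited expected counts were whole numbers, and 4 reporter features (at most 0.0171% of a library) were left out. Genotypes were compared within a day on 12 libraries, days within a genotype on 12, and interactions on 36, with edgeR 4.0.16 in R 4.3.3 (TMM, filterByExpr, quasi-likelihood tests, Benjamini-Hochberg adjustment over all genes, threshold 0.05), after tests on simulated counts. Alternatives were DESeq2 1.42.0, its size factors, library size alone, limma 3.58.1 on log2(TPM + 1) and log2(TPM + 0.1), TPM rescaled without 5 small structural RNAs (47.9% to 86.5% of the deposited TPM), their share of the counts (2.84% to 27.5%) as a covariate, no filter, fewer or more libraries in a fit, a replicate block and fits without each library. Intervals are not given for counts of 3 or fewer, the floor, and log2 values of genes near it depend on the prior count. Figures were drawn with matplotlib 3.10.9.

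The members and lists were chosen with earlier results of these data known. Values per library are given for the called genes with the largest and smallest change of each role in KO at day 7. They are also given for genes called against WT in no main fit. Further examples were chosen after their values were seen (MCM6, PCNA, CDT1, CDC6, CCNB2, CDC20, CDK1, TOP2A, MKI67). In the further lists up to 3 genes per direction are named. Same-numbered libraries deviated together across genes (r over 0.1) in every pair in 3 comparisons only: day 0 KO and WT (r from 0.290 to 0.695), day 3 KO and WT (0.128 to 0.588), and day 3 HET and WT (0.165 to 0.796). All libraries carry 1 batch label, and no label ties equal numbers together.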

Additional observations from a re-analysis of the deposited data

Results flagged for a closer look

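Among 171 groups of 4 libraries, 14 single libraries stood apart from the other 3 by Dixon's 95% limit, where chance gives about 1 in 20 groups, or 8.6. Over all S-phase genes, the mean log2(CPM + 1) was 3.49 in WT day 7 replicate 1 against 3.20 to 3.23 in the other libraries. Over the mitosis genes it was 5.18 in KO day 3 replicate 1 against 6.12 to 6.23, and 1.39 in KO day 7 replicate 3 against 1.56 to 1.58.

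WT day 7 replicate 1 was also apart for POLA1 (61.3 CPM, others 40.6 to 41.5) and ECT2 (41.3, others 15.3 to 18.4). TPX2 was apart in KO day 3 replicate 1 (43.5 CPM, others 106 to 118) and in HET day 7 replicate 1 (8.93, others 4.87 to 5.48). In HET day 3 replicate 4, CDC45 was at 13.0 CPM (others 33.1 to 34.1) and CENPE at 57.8 (others 190 to 210). E2F1 was at 21.4 CPM in WT day 7 replicate 4 (others 10.2 to 11.4), and ECT2 at 20.8 in HET day 7 replicate 4 (others 16.4 to 17.0). At day 0 in WT, RRM2 was at 245 CPM in replicate 2 (others 263 to 265), NDC80 at 51.9 in replicate 4 (others 48.7 to 49.2) and NUSAP1 at 107 in replicate 3 (others 114 to 115).

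By the interaction test, 16 of the 49 genes changed from day 0 to day 3 by different amounts in KO and in WT, and 33 did so from day 3 to day 7. For HET and WT, 22 genes did so from day 3 to day 7.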

How the results depend on the processing

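Counts of called genes were within 1.5 times the reported ones under DESeq2's size factors, library size alone and no filter in all 19 comparisons, and under DESeq2 in all but KO against HET at day 7, where it called 1. TPM gave other counts. On log2(TPM + 1) and log2(TPM + 0.1), which shifted the median of all genes by −0.45 to 0.45 and −0.83 to 0.74, the calls were 0 and 1 for KO against WT at day 3, 0 and 0 for KO against HET at day 3, 12 and 16 for KO and 4 and 6 for HET against WT at day 7, 38 and 36 for WT from day 0 to day 3, 0 and 0 for the KO interaction to day 3, 1 and 8 for the KO interaction to day 7 and 0 and 4 for the HET one. Rescaled without the small structural RNAs, TPM gave 22 for KO against WT and 10 for KO against HET at day 3. Library size alone moved the median of all genes by up to −0.13. The covariate gave 15 calls for HET against WT at day 7, and fits of the 8 libraries alone gave 14 there and 6 for KO against HET at day 3. Causes were not tested, except that the 8-library fits use fewer samples.

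Leaving out each library in turn gave 7 to 27 calls for KO against HET at day 3, 12 to 30 for HET and 29 to 32 for KO against WT at day 7, and 29 to 38 for KO against WT at day 3. The WT share of the day 0 level without WT day 7 replicate 1 was computed after seeing the data.

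With the replicate block KO against WT had 42 calls at day 3 and 0 at day 0, and HET against WT 0 at day 3. The block gave 1 call instead of 0 for KO against HET at day 7, and moved no other count of the 49 genes by over 1.5 times. In that comparison same-numbered libraries deviated together in replicates 2, 3 and 4 (r 0.367, 0.149 and 0.447) and not in replicate 1 (−0.030).

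Sign changes were listed only for the called genes with the largest and smallest change of each role in KO at day 7. Genes called against WT in no main fit were added. Other S-phase genes changed sign too, in HET at day 7. On log2(TPM + 1), the day 7 S-phase median was 0.37 in HET and 0.0137 in KO, against −0.28 and −0.40 in the main fits. The medians of all genes were 0.46 and 0.18 on that scale. In HET, 5 of the 22 tested S-phase genes were below 0 there. Sign changes among the listed genes were as follows. On TPM with a pseudocount of 1 and 0.1, POLA1 in KO at day 3 was 0.15 and 0.15, and ANLN 0.31 and 0.32 (0.14 rescaled). In KO at day 7 HMMR was 0.0586 and 0.16, and ANLN 0.47 and 0.61 (0.33 rescaled). In HET at day 7 MCM2 was 0.32 and 0.37, AURKA 0.10 and 0.13, POLA1 0.45 and 0.49, CENPE 0.10 and 0.21, HMMR 0.29 and 0.42, ECT2 0.34 and 0.41, and CCNB1 was 0.0174 with a pseudocount of 1. POLA1 in HET at day 7 was 0.0020 with the covariate. Leaving out 1 library at a time, the day 7 differences from WT ranged from −0.81 to 0.0614 for HMMR and −0.33 to 0.20 for ANLN in KO, and from −0.31 to 0.0116 for POLA1, −0.85 to 0.0258 for HMMR, −0.13 to 0.70 for ANLN and −0.55 to 0.0594 for ECT2 in HET. At 23.9 to 56.7 M counts, genes at 3 counts or fewer could not be told from 0.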
